A study of Mus musculus with 8 samples.

Results

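A set of 40 mitosis and spindle genes was followed in mouse cecal tumors with and without tamoxifen treatment. The members were chosen by gene symbol from a list of known mitotic genes, and all 40 were found, each with 1 row, among the 34586 symbols of the deposited expression table. RNA sequencing had been done on 8 tumors explanted from the mouse cecum, a model of GIST, the gastrointestinal stromal tumor, which arises from the lineage of the gut's pacemaker cells, the interstitial cells of Cajal. The 4 vehicle tumors and the 4 tamoxifen tumors came from C57BL/6 mice of 1 genotype: Kit V558Delta/+, Etv1 flox/flox and Rosa26 CreERT2/CreERT2. In such mice the mutant Kit receptor drives the tumors, tamoxifen activates the Cre recombinase made from the broadly active Rosa26 locus, and Cre removes the floxed part of Etv1, a transcription factor of the GIST lineage. The vehicle tumors carried the same alleles, so Etv1 loss and any other action of tamoxifen cannot be told apart, and deletion is not limited to tumor cells. The sources used here do not give dose, duration or age. Whether each replicate was its own mouse is not stated, and a p-value here then reflects only how these samples spread.

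Values are FPKM, the fragments mapped to a gene scaled by transcript length and by library size. Read depth per library is unknown, and 14176 to 14841 symbols reached 1 FPKM in each library. Etv1 was measured first as a check of the labels. It stood at 34.6, 51.1, 40.4 and 38.6 FPKM in vehicle replicates 1 to 4 and at 34.9, 19.7, 31.4 and 17.4 FPKM in tamoxifen replicates 1 to 4 (exact 2-sided permutation p = 0.0571 over 70 arrangements). Tamoxifen replicate 1 lay inside the vehicle range, and tamoxifen replicate 4 had the lowest value. The FPKM of a whole gene also takes in reads outside the floxed part, so this level does not measure deletion. Without the library labelled tamoxifen replicate 1 the median log2 fold change of the mitosis genes was -0.43, against -0.57 with all 8 libraries.

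Mitotic genes are made for a short time in each cell cycle. Cyclin B and its kinase start mitosis, condensin packs the chromosomes, kinetochores tie them to the spindle, a checkpoint holds the cell until every chromosome is attached, and the anaphase-promoting complex then releases them for division. Much of this program is switched as a unit at its promoters. The MuvB complex binds a short element called the CHR, and in resting cells it holds the genes off as part of the DREAM complex. In dividing cells it works with B-Myb and Foxm1 to turn them on, with the factor NF-Y at nearby CCAAT boxes. In a bulk tumor sample the level of these RNAs follows how many cells are dividing, and fewer cells of a type cannot be told apart from less RNA per cell.

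The promoter letters of the members are shown first, because the members share them and the choice of members did not use them. RefSeq promoter windows (GRCm38.p6, 250 bases before to 50 after a gene's start, 300 in all) were matched for 34 of 40 members and gave 36 windows. Unmatched were Foxm1, Incenp, Aurkb, Tpx2, Kif20a and Ccna2. The CHR letters TTTGAA, searched on both strands, were in 28 of the 36 windows (77.8%), against 17.9% of all 32851 windows and 12.2% of the 12326 windows of tested genes. The NF-Y letters CCAAT, on both strands, were also in 28 of 36 (77.8%), against 37.4% of all windows. Both motifs together were in 25 of 36 member windows (69.4%), against 6.95% of all windows and 4.84% of the windows of tested genes. The E2F-like letters TTGGCGC, also on both strands, were in 6 of 36 (16.7%), against 2.45% of all windows and 4.00% of the windows of tested genes. CCAAT read on the other strand, ATTGG, can share letters with each of the other motifs. In 27 windows of 25 genes a CHR match began between 100 bases before and 50 after the start. A match is a run of letters and not a measured binding site.

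The 130 bases before the start of 9 members follow, 5′ to 3′ on the gene's own strand, with CHR and CCAAT letters (either strand) in capitals. The first 5 are members that were low in most tamoxifen tumors, Cenpf and Nuf2 are the members that passed the test, and Mad2l1 and Bub1 are the members that were not lower.
Cdk1, chr10:69352913-69353042, minus strand: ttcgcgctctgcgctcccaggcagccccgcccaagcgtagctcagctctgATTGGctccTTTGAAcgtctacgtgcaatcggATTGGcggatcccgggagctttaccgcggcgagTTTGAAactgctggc
Cdc20, chr4:118437344-118437473, minus strand: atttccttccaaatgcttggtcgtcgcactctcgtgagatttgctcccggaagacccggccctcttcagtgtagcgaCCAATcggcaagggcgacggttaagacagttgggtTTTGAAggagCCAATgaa
Top2a, chr11:99024190-99024319, minus strand: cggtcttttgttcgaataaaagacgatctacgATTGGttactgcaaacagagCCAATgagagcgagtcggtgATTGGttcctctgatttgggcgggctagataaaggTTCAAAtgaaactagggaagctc
Mki67, chr7:135716380-135716509, minus strand: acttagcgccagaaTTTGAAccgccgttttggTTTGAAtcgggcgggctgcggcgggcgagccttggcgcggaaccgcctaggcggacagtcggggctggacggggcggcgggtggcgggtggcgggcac
Ube2c, chr2:164769799-164769928, plus strand: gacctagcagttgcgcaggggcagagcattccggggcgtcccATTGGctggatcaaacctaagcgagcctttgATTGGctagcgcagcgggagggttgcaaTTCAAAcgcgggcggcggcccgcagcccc
Cenpf, chr1:189688087-189688216, minus strand: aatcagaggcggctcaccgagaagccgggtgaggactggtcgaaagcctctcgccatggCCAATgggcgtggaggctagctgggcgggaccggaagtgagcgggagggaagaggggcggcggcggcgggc
Nuf2, chr1:169531465-169531594, minus strand: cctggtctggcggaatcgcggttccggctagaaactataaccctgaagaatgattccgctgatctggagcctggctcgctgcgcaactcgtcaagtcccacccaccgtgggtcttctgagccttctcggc
Mad2l1, chr6:66535091-66535220, plus strand: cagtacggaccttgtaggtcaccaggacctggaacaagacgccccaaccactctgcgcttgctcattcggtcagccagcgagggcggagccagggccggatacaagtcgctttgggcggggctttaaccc
Bub1, chr2:127831860-127831989, minus strand: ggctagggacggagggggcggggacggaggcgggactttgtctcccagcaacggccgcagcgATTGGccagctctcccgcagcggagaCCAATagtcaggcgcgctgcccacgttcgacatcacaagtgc
In these stretches Cdk1, Cdc20, Top2a, Mki67 and Ube2c hold CHR letters before the start. Mki67 holds CHR letters at 116 and 98 bases before its start and 3 CCAAT matches farther upstream than the stretch shown. Cenpf has a CCAAT box here, and its CHR letters begin 3 bases into the transcript. The windows of Nuf2 and Mad2l1 hold neither motif, and that of Bub1 holds CCAAT letters at 68 and 42 bases before the start but no TTTGAA.

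**Figure D1:**
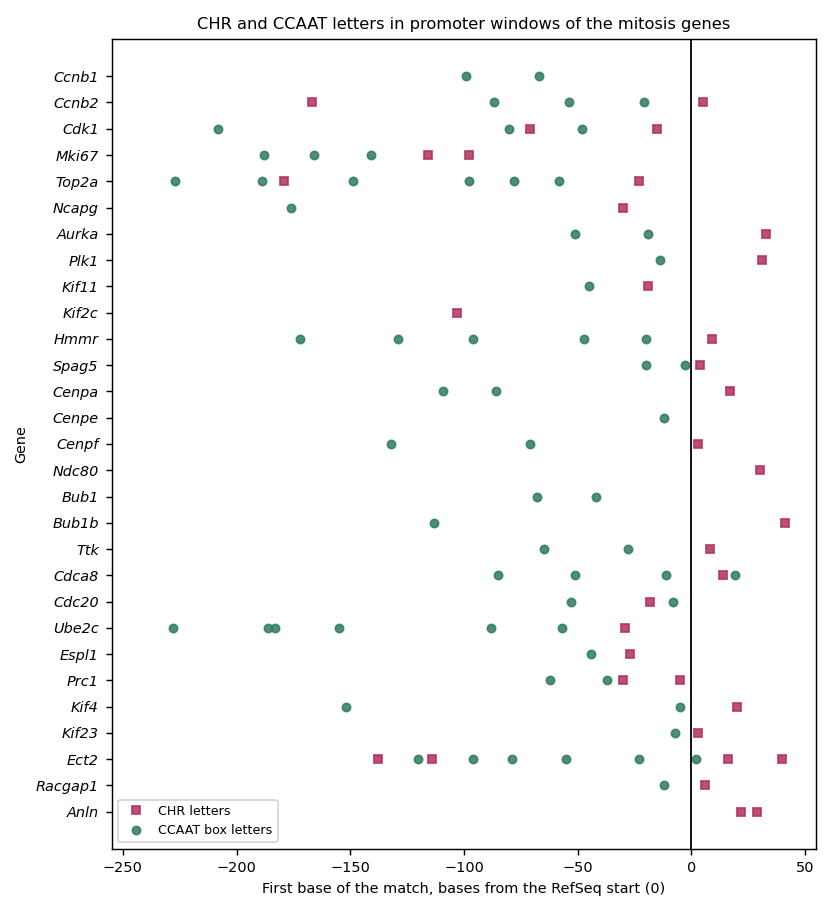
Positions of CHR letters (squares) and CCAAT letters (circles) in the promoter windows of the members that have either, with the x axis in bases from the RefSeq start and genes on the y axis. CHR matches gather close to the start, with CCAAT matches mostly upstream of them, and Ect2 and Prc1 have 2 windows each.

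Mitotic genes were lower on average after tamoxifen, but few passed the test. Of the 40 members, 39 had a mean of at least 1 FPKM and were tested, and Cenpe, a kinetochore motor just under that level, was not. A total of 37 of the 39 had a lower mean log2 level in tamoxifen tumors, where 49.4% of all 15023 tested genes did. Their median log2 fold change of FPKM + 1 was -0.57, against 0.01 over all tested genes. By limma with Benjamini-Hochberg adjustment over all tested genes, 2 of 39 fell and 0 rose (Nuf2 and Cenpf), a share near the background of 3.07% of tested genes called lower, and 2.38% were called higher. At an unadjusted p below 0.05 there were 18 of 39, all lower, against a background of 11.5%. In 7 members, Nuf2, Cenpf, Hmmr, Spag5, Ndc80, Bub1b and Prc1, every tamoxifen value lay below every vehicle value, against 7.74% of all tested genes. The reverse, every tamoxifen value above every vehicle value, held for 0 members and 7.37% of genes.

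The same comparison looked different by tumor. Relative to each gene's vehicle mean, the median member stood at 89.5%, 97.6%, 97.1% and 113% in vehicle replicates 1 to 4. It stood at 41.2%, 63.2% and 41.6% in tamoxifen replicates 1 to 3 and at 108% in tamoxifen replicate 4. Tamoxifen replicate 4 thus had mitotic RNA at the vehicle level, and the other 3 tamoxifen tumors had well under it. Tamoxifen replicates 1, 2 and 3 lay below every vehicle value in 38, 35 and 37 of the 40 members, and tamoxifen replicate 4 did so in 8. It lay inside the vehicle range in 20 members and above it in 12. It was the highest of the 4 tamoxifen libraries in 38 of 40 members, the exceptions being Nusap1 and Bub1.

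Without tamoxifen replicate 4, 20 of 39 members fell by limma, against a background of 2.76% of 14976 genes called lower in the same fit, and 0 rose. In that setting 32 of 39 members had no overlap between groups, against 10.1% of all tested genes, and the median log2 fold change was -0.79. With any of the other 7 libraries left out in turn, 0 of the members tested passed. In those fits 1.07% to 2.91% of all tested genes were called lower. Among tested genes with all 8 values, the pattern of the other 3 tamoxifen values below every vehicle value and tamoxifen replicate 4 not below them occurred in 341 of 14975, or 2.28%. It occurred in 25 of the 39 members. The same pattern with tamoxifen replicate 1, 2 or 3 as the exception occurred in 0, 1 and 0 members and in 2.19%, 1.26% and 4.03% of genes. These counts were chosen after the values were seen and carry no test. Each library was left out in turn, but the fit without tamoxifen replicate 4 is followed below because its high mitotic values were seen. It was the highest treated library in 38 of 40 members, so leaving it out lowers their treated means by construction. The counts and adjusted p-values of that fit, here and for the role groups and other lists below, are descriptive and no added support. Across all tested genes the mean Spearman correlation of tamoxifen replicate 4 with the vehicle libraries was 0.899, between the 0.876 and 0.897 of tamoxifen replicates 1 and 2 and the 0.907 of tamoxifen replicate 3.

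**Figure D2:**
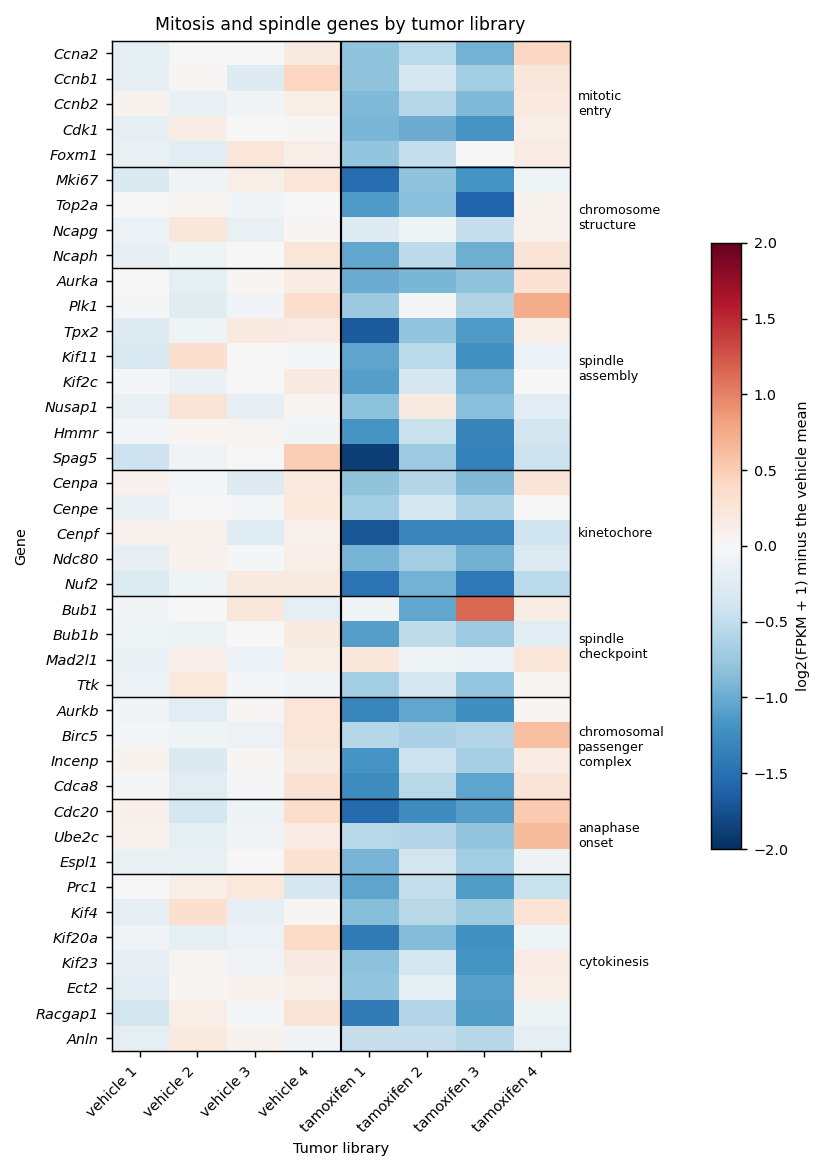
log2(FPKM + 1) minus the gene's vehicle mean for all 40 members (rows, by role) in the 8 tumors (columns), on a color scale from -2 (blue) to 2 (red). Tamoxifen replicates 1 to 3 are blue in nearly every row, and tamoxifen replicate 4 is close to the vehicle columns, with Bub1 and Mad2l1 as rows that differ.

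The genes of mitotic entry had lower means without passing. Cdk1, the kinase that starts mitosis, measured 26.7, 34.1, 30.7 and 31.2 FPKM in vehicle replicates 1 to 4 and 15.7, 14.8, 12.9 and 33.8 FPKM in tamoxifen replicates 1 to 4. The first 3 tamoxifen values were under every vehicle value, and tamoxifen replicate 4 was near the top of the vehicle range. The means were 30.7 ± 3.03 and 19.3 ± 9.71 FPKM (SD, n = 4 each), a log2 fold change of -0.74 (SE 0.27, limma adjusted p = 0.152). The 3 cyclin genes of the group differed in how high tamoxifen replicate 4 stood. Ccna2 and Ccnb2, which encode cyclins A2 and B2, had 7.05 to 9.71 and 4.52 to 5.84 FPKM in tamoxifen replicates 1 to 3, against 12.7 to 16.6 and 8.27 to 10.1 FPKM in the vehicle tumors. Tamoxifen replicate 4 had 19.6 and 10.7 FPKM, above the vehicle range for both. Ccnb1, for cyclin B1, was the scarcest of the group (2.95 ± 0.893 against 2.06 ± 1.05 FPKM, adjusted p = 0.401). Foxm1, the transcription factor that activates these genes, measured 6.41 ± 1.08 against 5.27 ± 1.83 FPKM (adjusted p = 0.506). None of the 5 passed, and 1 had an unadjusted p below 0.05. Cdk1, Ccna2 and Ccnb2 passed without tamoxifen replicate 4 (adjusted p = 0.0136, 0.0298 and 0.0236).

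In the chromosome structure genes tamoxifen replicate 4 was again the highest treated tumor. Mki67, whose protein coats mitotic chromosomes and is the usual proliferation marker, measured 4.89, 5.83, 6.85 and 7.55 FPKM in vehicle replicates 1 to 4. In tamoxifen replicates 1 to 4 it measured 1.52, 3.11, 2.15 and 5.80 FPKM, and only replicate 4 reached the vehicle range. The vehicle mean was 2.00-fold the tamoxifen mean (log2 fold change -0.90, SE 0.29, adjusted p = 0.114). Top2a, the topoisomerase that untangles sister chromatids, was one of the steadiest members in the vehicle tumors, at 31.8, 32.9, 30.5 and 31.8 FPKM. It measured 14.0, 17.4, 9.87 and 33.2 FPKM in tamoxifen replicates 1 to 4 (log2 fold change -0.87, SE 0.31, adjusted p = 0.139). The last of these was above all vehicle values and the others were far below them. The condensin subunit genes differed in size of change. Ncaph measured 4.92 ± 0.719 against 3.25 ± 1.94 FPKM (log2 fold change -0.57), and Ncapg 6.63 ± 0.906 against 5.76 ± 1.09 FPKM (log2 fold change -0.18, adjusted p = 0.521). None of the 4 passed, and 2 had an unadjusted p below 0.05. Mki67, Top2a and Ncaph passed without tamoxifen replicate 4 (adjusted p = 0.0267, 0.0186 and 0.0403).

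Of 8 spindle assembly genes none passed and all 8 had lower means, with log2 fold changes of -1.10 to -0.16, and 5 had an unadjusted p below 0.05. Spag5, which encodes astrin, a spindle and kinetochore protein, measured 4.83, 6.37, 6.70 and 9.93 FPKM in vehicle replicates 1 to 4 and 1.10, 3.67, 2.05 and 4.78 FPKM in tamoxifen replicates 1 to 4. The groups did not overlap, though the lowest vehicle and the highest tamoxifen tumor lay close together (log2 fold change -1.10, SE 0.33, adjusted p = 0.0936). Hmmr, whose protein helps to organise spindle microtubules, measured 2.57, 2.79, 2.82 and 2.54 FPKM in vehicle and 0.629, 1.70, 0.452 and 1.85 FPKM in tamoxifen tumors (-0.83 on the log2 scale, SE 0.24, adjusted p = 0.083). Its groups were clearly apart, and tamoxifen replicates 2 and 4 were the higher of the treated tumors. Nusap1, a microtubule bundling protein, was the most abundant of the group. It measured 6.07, 8.41, 6.02 and 7.12 FPKM in vehicle and 3.43, 7.92, 3.39 and 5.70 FPKM in tamoxifen tumors (adjusted p = 0.34). Here tamoxifen replicate 2, not replicate 4, was the highest treated tumor. The mitotic kinase genes Aurka and Plk1 and the Aurka activator gene Tpx2 had tamoxifen replicate 4 at 125%, 179% and 110.4% of the vehicle mean, and the other 3 tamoxifen tumors at a mean of 46.3%, 68.1% and 36.6%. The motor genes Kif11, which pushes spindle poles apart, and Kif2c, which takes microtubules down at kinetochores, had log2 fold changes of -0.73 and -0.60 (adjusted p = 0.14 and 0.207). Aurka and Tpx2 passed without tamoxifen replicate 4 (adjusted p = 0.0168 and 0.0308).

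Kinetochore genes included the 2 members that passed. Nuf2, a subunit of the Ndc80 complex that grips microtubules, measured 4.00, 4.71, 5.81 and 5.84 FPKM in vehicle replicates 1 to 4 and 1.16, 2.12, 1.24 and 3.16 FPKM in tamoxifen replicates 1 to 4. Every treated tumor, replicate 4 included, was below every vehicle tumor. Nuf2 fell 2.65-fold, with group means of 5.09 ± 0.895 and 1.92 ± 0.931 FPKM (-1.10 on the log2 scale, SE 0.23, limma adjusted p = 0.0344, n = 4 each; chromosome 1, 171428065 to 171461595 in mm9). Cenpf, a large protein of the outer kinetochore, measured 7.51, 7.53, 5.78 and 7.49 FPKM in vehicle and 1.45, 2.24, 2.23 and 5.09 FPKM in tamoxifen tumors. Cenpf fell 2.57-fold, with group means of 7.08 ± 0.865 and 2.75 ± 1.60 FPKM (-1.19 on the log2 scale, SE 0.26, adjusted p = 0.0396; chromosome 1, 191464478 to 191511965). The treated tumors were again all lower, with replicate 4 closest to the vehicle tumors. Both calls were lost without any 1 of the 7 libraries other than tamoxifen replicate 4, with adjusted p up to 0.103 for Nuf2 and 0.102 for Cenpf, and were kept in 8 of 18 alternatives.

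Ndc80, the partner of Nuf2, measured 2.91 ± 0.337 against 1.43 ± 0.569 FPKM with no overlap between groups (log2 fold change -0.71, adjusted p = 0.0605). Cenpa, the histone that marks centromeres, was the most abundant gene of this group. It measured 15.4, 14.3, 12.1 and 16.9 FPKM in vehicle and 7.91, 9.36, 7.41 and 17.5 FPKM in tamoxifen tumors (-0.51 on the log2 scale, SE 0.25, adjusted p = 0.274). Its value in tamoxifen replicate 4 was above the vehicle range, unlike those of Nuf2, Cenpf and Ndc80. Cenpe, the untested motor gene, measured 1.27 ± 0.240 against 0.726 ± 0.381 FPKM. All 4 tested genes passed without tamoxifen replicate 4, where Cenpa and Ndc80 had adjusted p of 0.031 and 0.0253.

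Just inside the threshold were Nuf2 and Cenpf, and the members next outside it were Ndc80 and Prc1 (adjusted p = 0.0605 and 0.0607).

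The spindle checkpoint genes did not move as a group. Bub1b, which encodes the checkpoint protein BubR1, measured 8.998, 8.92, 9.61 and 11.0 FPKM in vehicle and 3.94, 6.50, 5.44 and 8.20 FPKM in tamoxifen tumors, with no overlap (log2 fold change -0.63, SE 0.19, adjusted p = 0.0914). Ttk, the kinase that starts checkpoint signalling, measured 2.05 ± 0.311 against 1.29 ± 0.622 FPKM (adjusted p = 0.251). Mad2l1, whose protein blocks the anaphase-promoting complex, measured 14.2, 16.9, 14.3 and 17.3 FPKM in vehicle and 18.5, 14.7, 14.3 and 18.7 FPKM in tamoxifen tumors. Tamoxifen replicates 1 and 4 were above the vehicle range and the other 2 were inside it, and the log2 fold change was 0.07 (SE 0.13, adjusted p = 0.801).

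Bub1, the checkpoint kinase gene, stood apart from the other members in level. It measured 102, 106, 124 and 93.0 FPKM in vehicle replicates 1 to 4 and 101, 51.0, 235 and 118 FPKM in tamoxifen replicates 1 to 4. Its mean over the 8 tumors was 116 FPKM, while Top2a, the next highest member, had 25.2 FPKM. Both the lowest and the highest tumor were treated ones, and tamoxifen replicate 3, in which most members were low, had the highest Bub1 value (log2 fold change 0.05, SE 0.39, adjusted p = 0.954). No other gene at 1 FPKM or more overlaps its locus in the table, and which part of the gene the reads came from was not tested. The direction of its small change was negative in 4 of the 19 alternatives. Of the 4 checkpoint genes none passed and 1 had an unadjusted p below 0.05, and Bub1b passed without tamoxifen replicate 4 (adjusted p = 0.0427).

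The chromosomal passenger complex corrects faulty attachments and then moves to the midzone. Its kinase gene Aurkb measured 9.11, 8.15, 9.75 and 11.5 FPKM in vehicle and 3.27, 4.14, 3.49 and 9.93 FPKM in tamoxifen tumors. Tamoxifen replicates 1 to 3 were tightly grouped and far below the vehicle tumors, and replicate 4 was inside their range (log2 fold change -0.88, SE 0.29, adjusted p = 0.118). Birc5, for survivin, measured 13.7, 13.3, 12.9 and 17.0 FPKM in vehicle and 9.25, 8.70, 9.10 and 22.1 FPKM in tamoxifen tumors. Its value in tamoxifen replicate 4 was the highest of all 8 tumors (log2 fold change -0.30, SE 0.28, adjusted p = 0.565). The scaffold gene Incenp measured 7.21 ± 1.09 against 4.97 ± 2.32 FPKM, and Cdca8, for borealin, 8.75 ± 1.46 against 5.72 ± 3.40 FPKM. None of the 4 passed and 1 had an unadjusted p below 0.05. Without tamoxifen replicate 4, Aurkb, Birc5 and Cdca8 passed (adjusted p = 0.0136, 0.0396 and 0.041).

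By the medians of the role groups, genes of anaphase onset had the widest distance between tamoxifen replicate 4 and the other treated tumors. Cdc20, the activator of the anaphase-promoting complex, measured 13.0, 9.19, 11.1 and 15.7 FPKM in vehicle and 3.46, 4.52, 5.04 and 17.6 FPKM in tamoxifen tumors. Tamoxifen replicates 1 to 3 had a mean of 35.5% of the vehicle mean and replicate 4 had 144% (log2 fold change -0.84, SE 0.42, adjusted p = 0.279). Ube2c, the ubiquitin-conjugating enzyme of the same complex, measured 12.5, 10.2, 11.1 and 13.3 FPKM in vehicle and 7.67, 7.49, 6.33 and 18.7 FPKM in tamoxifen tumors, so that the highest and the lowest tumors were both treated (adjusted p = 0.549). Espl1, the separase that cuts cohesin, was near the lower limit of testing. It measured 1.17, 1.18, 1.39 and 1.97 FPKM in vehicle and 0.265, 0.864, 0.496 and 1.23 FPKM in tamoxifen tumors (-0.52 on the log2 scale, SE 0.22, adjusted p = 0.207). None of the 3 passed and 1 had an unadjusted p below 0.05. Cdc20 and Ube2c passed without tamoxifen replicate 4 (adjusted p = 0.0186 and 0.0373).

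Of 7 cytokinesis genes none passed and all 7 had lower means, with log2 fold changes of -0.90 to -0.42, and 4 had an unadjusted p below 0.05. Prc1, which bundles the central spindle, measured 20.2, 22.1, 23.8 and 16.1 FPKM in vehicle and 9.33, 14.4, 8.85 and 14.6 FPKM in tamoxifen tumors. The groups did not overlap (log2 fold change -0.77, SE 0.20, adjusted p = 0.0607). Kif20a, a motor of the midzone, measured 5.62, 5.08, 5.45 and 8.14 FPKM in vehicle and 1.61, 2.81, 2.02 and 5.59 FPKM in tamoxifen tumors. Its value in tamoxifen replicate 4 lay inside the vehicle range and the other 3 far below it (log2 fold change -0.90, SE 0.29, adjusted p = 0.109). Racgap1 and Kif23, which form the centralspindlin complex, measured 12.7 ± 2.40 against 7.26 ± 3.37 FPKM and 5.17 ± 0.634 against 3.47 ± 1.82 FPKM. Ect2, the exchange factor that switches on RhoA for furrowing, measured 4.47 ± 0.551 against 3.12 ± 1.54 FPKM. Anln, the furrow scaffold anillin, measured 4.10 ± 0.591 against 2.80 ± 0.441 FPKM, a change of -0.42 on the log2(FPKM + 1) scale (adjusted p = 0.117). Kif4, a chromosome-bound motor, measured 2.68 ± 0.623 against 1.79 ± 1.11 FPKM. Kif20a and Racgap1 passed without tamoxifen replicate 4 (adjusted p = 0.0236 and 0.047).

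**Figure D3:**
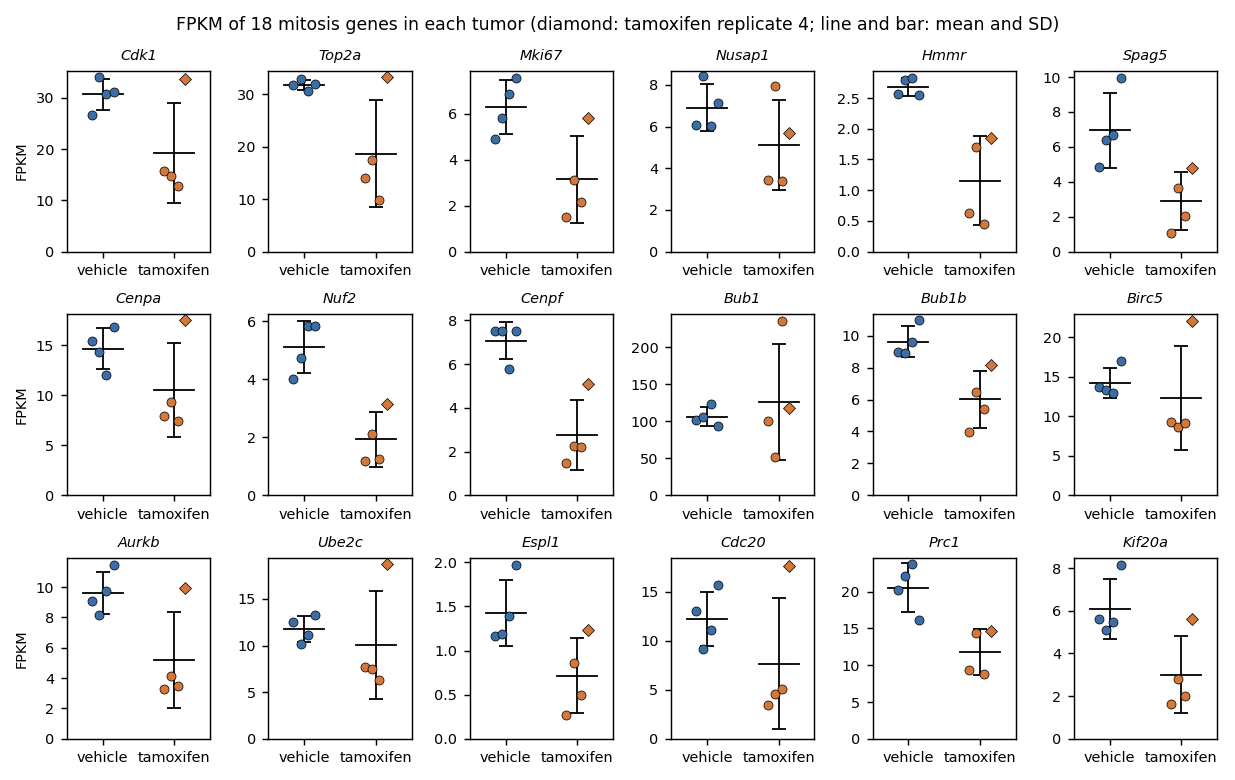
FPKM of 18 members in each tumor (points) with the mean and SD (line and bar, n = 4) for the vehicle and tamoxifen groups, with tamoxifen replicate 4 as a diamond. In Cdk1, Top2a, Birc5, Ube2c and Cdc20 the diamond lies at the top of the vehicle values or above them while the other treated tumors lie below them, and in Nuf2, Cenpf, Hmmr, Spag5, Bub1b and Prc1 all 4 treated tumors lie below the vehicle tumors.

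**Figure D4:**
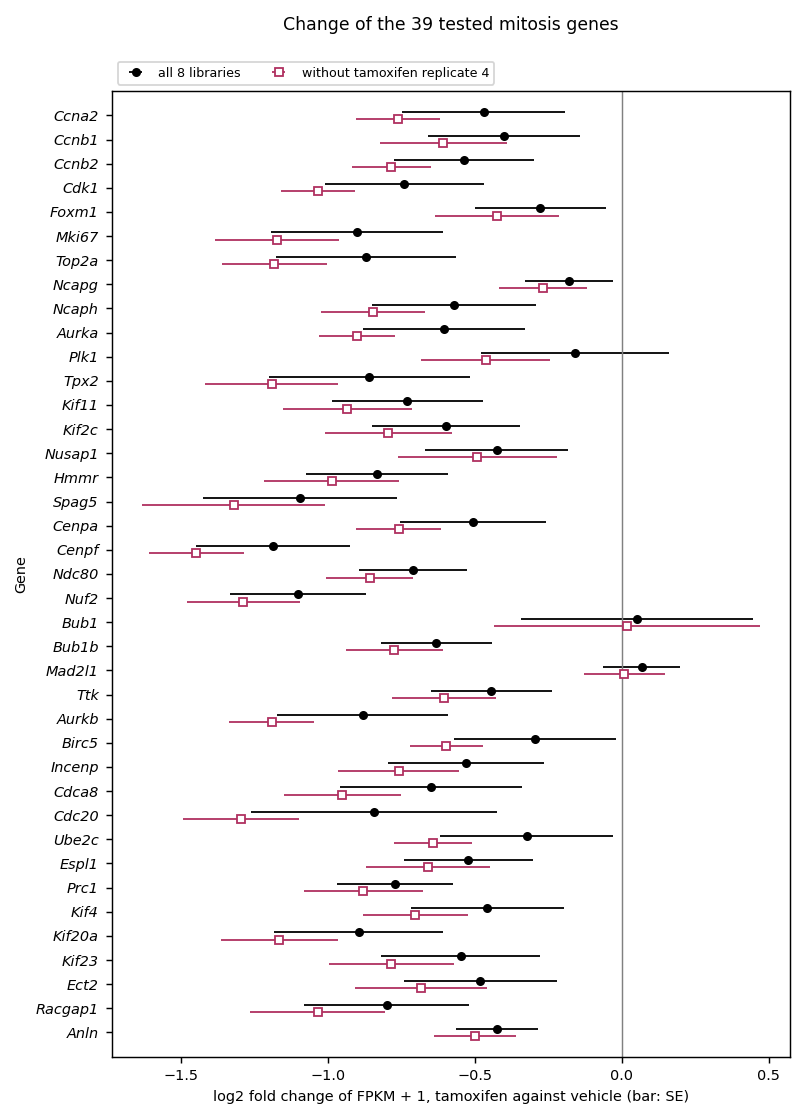
log2 fold change of FPKM + 1 (x axis, bar: SE) of the 39 tested members (y axis), with all 8 libraries (circles) and without tamoxifen replicate 4 (squares). All circles but those of Bub1 and Mad2l1 are below 0, and their median moves from -0.57 to -0.79 without that library, with smaller SEs for most genes.

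The promoter letters were set beside these changes as a description. The 26 tested members with CHR letters had log2 fold changes of -1.19 to -0.16 with a median of -0.62, and the 7 tested members whose windows lacked them had -1.10 to 0.07 with a median of -0.40. Bub1 and Mad2l1, the members with no lower mean, were both among those 7, and so was Nuf2, which fell. The others were Birc5, Ccnb1, Ncaph and Nusap1. By CCAAT letters the medians lay closer, at -0.61 in the 25 tested members with them and -0.50 in the 8 without. Bub1 was among those with CCAAT letters, and Mad2l1 and Nuf2 among those without.

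Other genes of the cell division cycle were read from the same fit in 8 lists. Of 153 such genes tested, 6 fell and 1 rose, shares near the background of 3.07% of all tested genes called lower and 2.38% called higher. Their median log2 fold change was -0.21. Pbk, a mitotic kinase, fell from 13.2 ± 2.57 to 4.77 ± 2.12 FPKM (log2 fold change -1.35, limma adjusted p = 0.0285, n = 4 each). The other of 17 mitotic kinase and phosphatase genes that fell was Nek6, from 23.3 ± 2.17 to 15.4 ± 2.07 FPKM (adjusted p = 0.0396), and the median of that list was -0.16. Of 25 further kinesin and spindle genes, Ckap2 and Ckap2l, which encode spindle-associated proteins, both fell. Ckap2 went from a mean of 5.78 ± 0.274 to 2.60 ± 0.926 FPKM with an adjusted p of 0.0224, and Ckap2l from 4.62 ± 0.688 to 1.74 ± 0.972 FPKM with an adjusted p of 0.0382. In all of these 4 genes the treated tumors lay below every vehicle tumor, replicate 4 included. None of 28 further kinetochore and centromere genes passed (median -0.32), and Cenpi came nearest (2.60 ± 0.511 against 1.15 ± 0.489 FPKM, adjusted p = 0.0647). At an unadjusted p below 0.05 there were 12 of these 28 lower and 1 higher, where 11.5% of all tested genes were lower.

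The 16 further genes of the anaphase-promoting complex and its regulators had a median log2 fold change of -0.06, and none passed. Fbxo5, its inhibitor Emi1, had the smallest p there (5.52 ± 0.429 against 3.90 ± 0.654 FPKM, adjusted p = 0.103). The 16 further condensin and cohesin genes had a median of -0.17 and none passed, with Smc2 at 6.50 ± 0.921 against 4.19 ± 0.965 FPKM (adjusted p = 0.105). Of 11 further cytokinesis genes, Tsg101, which acts in abscission and in endosomal sorting, rose from 18.1 ± 0.683 to 25.9 ± 2.74 FPKM (adjusted p = 0.0361). Of 20 DREAM and MuvB regulators, Rbl1, the pocket protein p107, fell to 5.56 ± 0.777 FPKM from a vehicle mean of 9.97 ± 2.09 (adjusted p = 0.0468). The list median was -0.04.

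Replication licensing and S phase genes came closest of the 8 lists to the mitotic members in tamoxifen replicates 1 to 3. Their median gene stood at 51.6%, 61.0% and 56.1% of the vehicle mean in tamoxifen replicates 1 to 3 and at 96.8% in replicate 4. Of 20 tested, 18 had lower means (median -0.57). Mcm4, a subunit of the replicative helicase, fell to 14.8 ± 1.47 FPKM from a vehicle mean of 23.8 ± 2.13 (adjusted p = 0.0183). With all 8 libraries Mcm4 was the 1 of the 20 that passed. In the fit without tamoxifen replicate 4, 10 of the 20 fell, against 2.76% of all genes tested there. By the list median replicate 4 was the highest treated tumor here too, so leaving it out tends to lower the treated means. The count of 10 is descriptive and no added support.

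**Figure D5:**
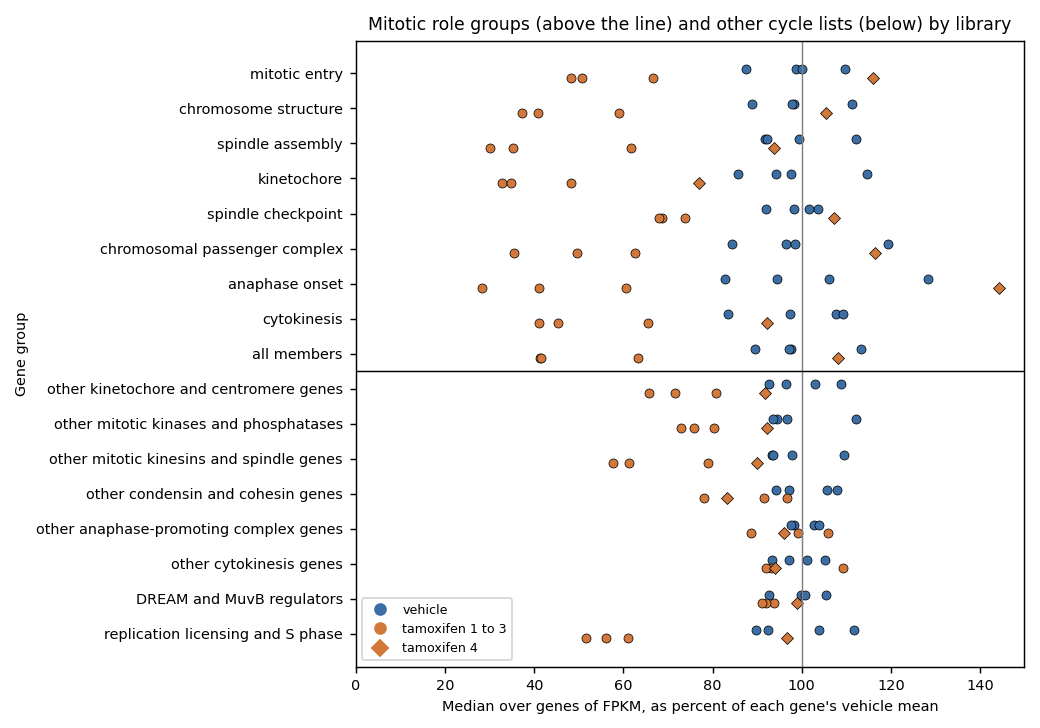
Median over genes of FPKM as a percent of each gene's vehicle mean (x axis) for the 8 role groups of the members, all members, and 8 other lists (y axis), 1 point per tumor. In the role groups tamoxifen replicates 1 to 3 lie between 28.3% and 73.8%, while replicate 4 lies between 76.9% and 144%, and the vehicle tumors lie between 82.9% and 128%.

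Markers of the cell types in these tumors also differed between the groups and between treated tumors. Of 15 tested markers of interstitial cells of Cajal and GIST, Edn3 fell and Cd34 and Gprc5a rose. Of all tested genes 3.07% were called lower and 2.38% higher. In this list 10 of the 15 had lower means, and at an unadjusted p below 0.05, 5 were lower and 3 higher. The summed level of the 16 listed was 2631 to 3874 FPKM in vehicle and 1862 to 2651 FPKM in tamoxifen tumors, with replicate 4 at 1866. Kit, the mutant receptor, measured 542, 892, 870.5 and 735 FPKM in vehicle and 409, 386, 567 and 425 FPKM in tamoxifen tumors, and tamoxifen replicate 4 was below the vehicle range as replicates 1 and 2 were. T and NK cell markers fell in 11 of 18, among them Cd3e, Cd8a and Gzmb, against 3.07% of all tested genes. They summed to 312 to 436 FPKM in vehicle and 174 to 239 FPKM in tamoxifen tumors, with replicate 4 at 199. The T and NK cell sum in tamoxifen replicate 4 lay inside the range of the other treated tumors.

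Intestinal epithelium markers summed to 1134 to 1838 FPKM in vehicle and 1889 to 3743 FPKM in tamoxifen tumors, with replicate 4 the highest and replicate 1 next at 3468. Of 14 tested, Olfm4, a crypt gene, fell and Krt18 rose, where 3.07% of all tested genes were called lower and 2.38% higher. Of the 14, 3 had lower means, and the median log2 fold change was 0.77. At an unadjusted p below 0.05, 2 were lower and 6 higher. Neutrophil markers summed to 7.30 to 27.7 and 180.5 to 474 FPKM, again highest in replicate 4. Of the 10 listed, 5 had a mean under 1 FPKM and were not tested, and 4 of the 5 tested rose (Ly6g, S100a8, S100a9 and Retnlg). The share of all tested genes called higher was 2.38%, but neutrophil markers, low in vehicle tumors, could pass the filter mainly through their treated values. B and plasma cell markers, of which 0 of 11 passed in limma and 1 was lower at an unadjusted p below 0.05, summed to 493 to 1633 and 346 to 1093 FPKM. Germinal center B cell markers, of which 0 of 4 passed, 2 were lower and 1 higher at an unadjusted p below 0.05, summed to 12.3 to 23.2 and 11.2 to 20.4 FPKM, lowest in replicate 4. Of endothelial markers 4 of 10 rose (Pecam1, Tek, Emcn and Egfl7) and of smooth muscle markers 1 of 9 (Synpo2), against 2.38% of all tested genes. The sums of these lists were 232 to 248 and 220.4 to 411 FPKM in vehicle tumors. In tamoxifen tumors they were 216 to 335 and 366 to 471 FPKM, with replicate 4 at 309 and 432 FPKM. Macrophage, fibroblast and enteric nerve and glia markers had 0 of 11, 0 of 9 and 0 of 7 past the threshold. At an unadjusted p below 0.05, 1, 0 and 1 were lower and 2, 3 and 1 higher, where 11.5% of all tested genes were lower. The macrophage, fibroblast and nerve and glia sums were 945 to 1358, 475 to 798 and 52.8 to 90.9 FPKM in vehicle tumors. In tamoxifen tumors they were 816 to 2512, 679.7 to 1303 and 36.1 to 73.7 FPKM, with replicate 4 at 1317, 679.7 and 53.3 FPKM. No listed marker of any of the 11 cell types was at 0 in every tumor. The part of these cell types in the levels of the mitotic genes was not tested.

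The sample identifiers fall into a lower and a higher range of numbers, whose meaning the labels do not give. Within the lower range, with 3 vehicle and 2 tamoxifen tumors, the median log2 difference of the members was -0.70 and 38 of 39 were negative. Within the higher range, with 1 vehicle tumor (replicate 4) and tamoxifen replicates 3 and 4, it was -0.60 and 38 of 39 were negative. In vehicle replicate 4 the median member stood at 113% of the vehicle mean, the highest of the vehicle tumors. In tamoxifen replicates 3 and 4 the median member stood at 41.6% and 108%. These within-range values carry no test.

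Members that share a locus with another gene at 1 FPKM or more are less certain, since whether the counting used strand is not given in the sources used here. They are 10 in number: Ccna2, Foxm1, Top2a, Ncapg, Nusap1, Ndc80, Cdca8, Cdc20, Kif4 and Kif20a. The most abundant overlapping gene was Elovl1 at the Cdc20 locus, with 73.7 FPKM.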

How the data were processed

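RNA from 8 tumors, 4 per group, was sequenced, and the authors deposited 1 table of FPKM values per gene in the layout of Cuffdiff, per the file headers. The submitters' processing notes name STAR 2.3, Cufflinks, Cuffdiff and mm9, without roles. Read depth is not given in the sources used here, so no counting interval could be set.

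Values with a failed or high-data status (178 in the table, 0 in the members) were taken as missing, and the 37980 rows were summed per symbol. Genes with a mean of at least 1 FPKM and at least 2 values per group were tested by a 2-sided moderated test in limma 3.58.1 (R 4.3.3, eBayes with trend) on log2(FPKM + 1), with Benjamini-Hochberg adjustment and a threshold of 0.05. The script was tested on simulated data. Fold changes on this scale understate those of low genes. Alternatives were other pseudocounts, filters, scalings, weights and covariates, a block on replicate number, robust eBayes, failed values as deposited, and each library left out.

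Values in every library are given for Mki67, members past the threshold, and in each role group the most abundant member, that with the smallest p and that with the largest change. Mad2l1 was added after its values were seen. Members and gene lists were chosen with earlier results of these data known.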

Additional observations from a re-analysis of the deposited data

Results flagged for a closer look

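In 7 of 82 groups of 4 values, 1 tumor lay far from the other 3: its gap to the nearest passed the 95% critical value of Dixon's ratio. Of these, 6 are high values of tamoxifen replicate 4: Cdk1 at 33.8, Aurka at 8.25, Aurkb at 9.93, Birc5 at 22.1, Cdc20 at 17.6 and Ube2c at 18.7 FPKM. In the vehicle group Cenpf was low in replicate 3, at 5.78 FPKM. Chance alone marks about 5% of such groups, and the members are not independent of each other.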

How the results depend on the processing

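In each alternative run the median log2 fold change of the members stayed negative, from -0.79 to -0.43. The 2 members past the threshold became 0 with no filter on low values, 0 after scaling to the same summed FPKM and 0 with a replicate block. In these runs, in that order, 1.21%, 0.498% and 0.925% of all tested genes were called lower. At a mean of at least 5 FPKM the count was also 0, but there neither Cenpf nor Nuf2 was tested, so that value says nothing of them. With 1 library left out the count ranged from 0 to 20, and 20 came without tamoxifen replicate 4. Called lower there were 2.76% of all tested genes, and 1.07% to 2.91% with any other library left out. The adjusted p of Cenpf and Nuf2 was 0.0739 and 0.0658 with no filter and 0.0586 and 0.0992 after scaling to the same sum. The 7 members without overlap became 2 at a mean of at least 5 FPKM, where 21 members were tested. They became 2 of 40 after scaling to the same sum. The shares of all tested genes were 7.77% and 2.27%, against 7.74% in the main run. At 5 FPKM the 2 were Bub1b and Prc1, and Nuf2, Cenpf, Hmmr, Spag5 and Ndc80 were under that level and not tested. With a library left out the members without overlap ranged from 7 to 32, with 11 without vehicle replicate 1. The share of all tested genes was 8.57% to 11.8% in these runs, and 10.6% without vehicle replicate 1. The 819 genes called (358 higher, 461 lower) became 534 at a mean of at least 5 FPKM and 228 (153 higher, 75 lower) after scaling to the same sum, and ranged from 268 to 856 with a library left out. The change of Bub1 turned to -0.10 with the identifier range as a covariate, -0.27 with quality weights, and with a library left out it ranged from -0.32 (no tamoxifen replicate 3) to 0.41, with -0.0092 for no vehicle replicate 4. That of Plk1 ranged from -0.46 to 0.036, the latter without tamoxifen replicate 1. The cause was not tested. Ndc80 passed with quality weights (adjusted p = 0.0415).

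Whether replicate numbers pair the tumors is not given in the sources used here, and expression values alone cannot settle it. The correlations of same-numbered libraries' deviations were -0.16, -0.0021, 0.14 and 0.06, and the numbers 3 and 4 but not 1 and 2 matched best with their own. With the replicate block 252 genes were called, and Cenpf and Nuf2 had adjusted p of 0.0671 and 0.0561.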
